A study of Danio rerio with 12 samples.

Results

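Microglia of mafba mutant zebrafish were compared with microglia of siblings at 3 dpf (days post fertilisation). The comparison rests on 6 of the 12 tubes of the series, 3 mafba tubes and 3 sibling tubes, taken by the genotype that the labels give. Each tube held 3 DsRed-positive cells that were picked by hand after the brains of about 10 embryos had been dissociated, and poly(A) RNA was amplified by Smart-seq2, a full-length cDNA method. All fish carried Tg(mpeg1:DsRedx), in which the mpeg1 promoter drives a red protein in macrophages and microglia alike. The mutant group is labelled mafba mutant and the other siblings. The sources used here give neither the allele nor the exact genotype of the siblings, nor whether tubes of 1 group share a dissociation. The p-values therefore measure the spread between these tubes, which may be technical. The other 6 tubes, 3 of mafbb mutants and 3 labelled DMut, entered the model only to estimate the spread, and their values stand beside a few genes below.

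Microglia are the resident macrophages of the brain. In the zebrafish embryo they arise from early macrophages that enter the brain, take up dying neurons and come to express apoeb, apoc1 and ccl34b.1.

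Total counts were 17689266, 12603769 and 15408465 in mafba replicates 1 to 3, and 12920090, 10726836 and 13085239 in sibling replicates 1 to 3. Macrophage genes were present in every tube. The MPEG1 gene ENSDARG00000055290 had 2672, 2214 and 3006 CPM in the mafba tubes and 1722, 1902 and 2219 CPM in the sibling tubes, where CPM is the count of a gene per mega-count of the tube's library, scaled by TMM. The globin genes and the neutrophil gene lyz had 0 counts in all 6 tubes. The tube mafba replicate 2 stood apart. It held 10521 genes with at least 1 count, against 7038 and 8153 in the other mafba tubes and 7077 to 7665 in the sibling tubes. Of 35117 gene IDs, 969 had at least 10 counts in it and 0 in the other 5 tubes, which partly restates its number of genes. The same count was 290 and 421 for mafba replicates 1 and 3 and 212 to 274 for the sibling tubes. Spike-in RNA took 0.0946% of counts in mafba replicate 2, against 0.452% and 0.203% in the other mafba tubes and 0.194% to 0.342% in siblings. Results are therefore given with and without mafba replicate 2. In tubes of 3 cells, fewer cells of a kind and less RNA per cell cannot be told apart.

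Across 9519 genes no gene passed an adjusted p of 0.05 in edgeR's quasi-likelihood test with Benjamini-Hochberg adjustment, so the share called was 0% in each direction. At an unadjusted p under 0.05, 552 genes (5.8%) were higher in mafba and 192 (2.02%) were lower. The smallest adjusted p was 0.126. Tubes of 1 genotype differed widely, with a common dispersion of 4 and a coefficient of variation of 2, and the median SE of a log2 fold change was 1.75 for the 3420 genes counted in all 6 tubes and 3.52 for the others. The median log2 fold change (mafba minus siblings throughout) of all genes was 0.11, and 53.3% of genes lay above 0. Every mafba tube lay above every sibling tube in 534 genes (5.61%) and below in 352 genes (3.7%). With at least 10 counts in each tube of the higher group these were 451 (4.74%) and 337 (3.54%). DESeq2 called 455 genes higher (4.78% of 9527) and 139 lower (1.46%), but 437 of its 594 calls were counted in at most 2 of the 6 tubes and 0 in all 6. limma voom called 24 higher (0.252%) and 13 lower (0.137%), of which 28 were counted in at most 3 tubes and 4 in all 6. Fitted on the 6 compared tubes alone, edgeR called ppp2r2ab and MCM3 higher (0.021%) and adgrg1 lower (0.0105%), each at an adjusted p of 0.0479.

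**Figure D1:**
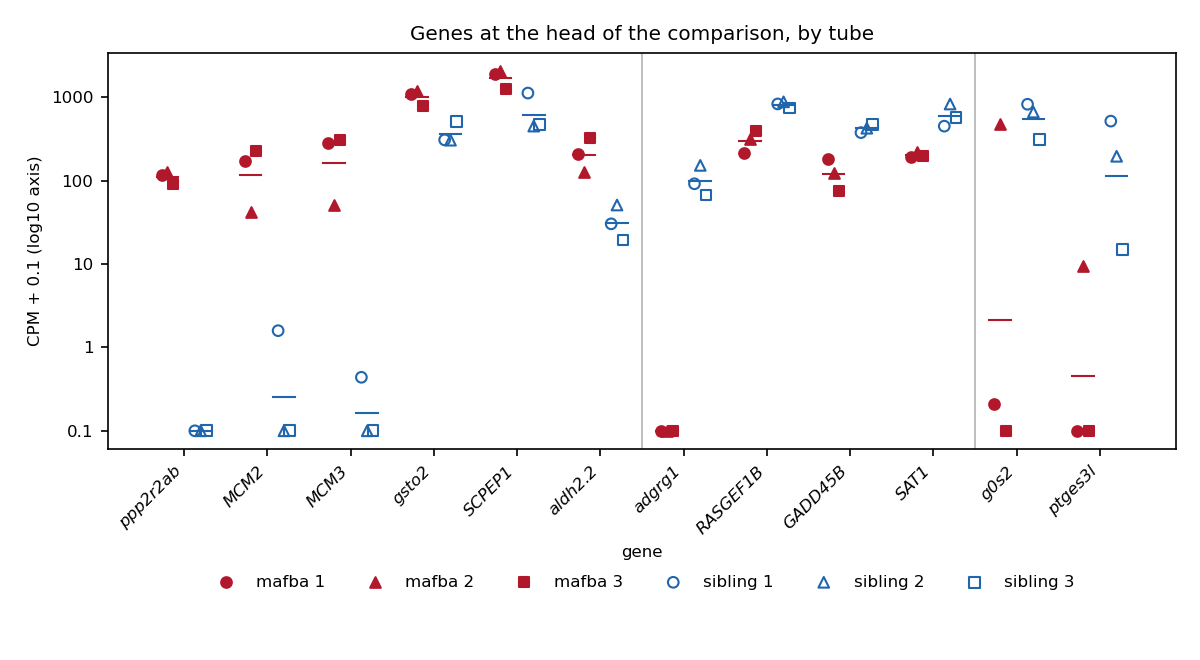
CPM plus 0.1 on a log10 axis for 12 genes in each mafba tube (filled red) and each sibling tube (open blue), with 1 marker shape per replicate number and a line at the mean of the log values of 3 tubes. Left of the first grey line are genes higher in mafba and between the lines genes lower in mafba, none of which passed the test. On the right are g0s2 and ptges3l, which the same test called when mafba replicate 2 was left out.

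The genes with the smallest p were of 2 kinds. Some were absent or nearly absent from 1 group, and others were counted in all 6 tubes and differed by a few fold. The plot of 12 genes by tube shows both. Of the 10 higher genes with the smallest p, none of which passed, ppp2r2ab (ENSDARG00000006624), a regulatory subunit of the phosphatase PP2A, came first. It had 117, 126 and 92.7 CPM in the mafba tubes, against 0 CPM in each sibling tube. The mafba tubes were alike and the sibling tubes held no count. This gives a level at least 1398-fold higher in mafba against a floor of 3 counts over the sibling group, a bound on counting error alone. Its adjusted p was 0.126 in edgeR and reached 0.0267 in limma voom and 2.69e-05 in DESeq2. In the other genotypes it had 37.3, 4.24 and 269 CPM in the mafbb tubes and 61.3, 0.236 and 91.2 CPM in the DMut tubes, a wider spread than among the mafba tubes.

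Subunits of the MCM helicase, which opens DNA at replication origins, came next. MCM2 (ENSDARG00000102798) had 171, 42.1 and 228 CPM in the mafba tubes, against 1.49, 0 and 0 CPM in the sibling tubes. MCM3 (ENSDARG00000024204) had 281, 51.3 and 306 CPM in the mafba tubes and 0.339, 0 and 0 CPM in the sibling tubes. In both genes every mafba tube lay far above every sibling tube, with mafba replicate 2 the lowest of the mafba tubes. The log2 fold changes were 8.16 ± 1.80 (SE) for MCM2 and 10.70 ± 2.59 (SE) for MCM3, with adjusted p = 0.148 and 0.376 in edgeR. Without sibling replicate 1, the sibling tube that held counts of both, MCM2 was called (adjusted p = 0.00753 in edgeR). With all tubes MCM2 was called in DESeq2 (adjusted p = 0.0325) and limma voom (0.0267). edgeR called it with spike-in scaling (0.0242), without a filter (0.00945) and with the replicate number as a block (0.0110). It was not called with the other scalings, the stricter filter, robust=FALSE or the 6 compared tubes alone.

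A group of enzymes was counted in all 6 tubes and differed by 2.58-fold to 6.54-fold. For gsto2 (ENSDARG00000033285), a glutathione transferase of the omega class, the mafba tubes had 1102, 1190.1 and 780.04 CPM and the sibling tubes 309.8, 307 and 510.5 CPM. The groups lay apart, with a log2 fold change of 1.45 ± 0.37 (SE) and an adjusted p = 0.429 in edgeR. SCPEP1 (ENSDARG00000040072), a serine carboxypeptidase of the lysosome, had 1938, 2088 and 1273 CPM in mafba tubes and 1129, 453 and 472 CPM in sibling tubes. Sibling replicate 1 came closest to the mafba tubes, the log2 fold change was 1.37 ± 0.38 (SE) (adjusted p = 0.608 in edgeR), and without that tube the gene was called at an adjusted p of 0.0211. The mitochondrial aldehyde dehydrogenase aldh2.2 (ENSDARG00000028087) had 209.6, 127 and 323 CPM in mafba tubes and 30.3, 51.1 and 19.3 CPM in sibling tubes. Its log2 fold change of 2.71 ± 0.80 (SE) had an unadjusted p of 0.00140 and an adjusted p of 0.608 in edgeR.

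The other higher genes of the first 10 rested on few tubes. tnfaip2b, a homologue of a TNF-induced gene, had 118, 8.77 and 1.70 CPM in the mafba tubes and 0 in each sibling tube. The receptor gene robo4, known from endothelium, had 17.2, 239 and 0.136 CPM in the mafba tubes and 0 in each sibling tube. The gene cdkn1ca, an inhibitor of cyclin-dependent kinases, had 265, 0.0914 and 0.136 CPM in the mafba tubes and 0 in each sibling tube. In these 3 genes 1 mafba tube held most of the counts. A member of a multigene family of immune receptors, dicp2.1, in which reads may be split between copies, had 11.5, 0 and 26.8 CPM in the mafba tubes and 0 in each sibling tube, so that 1 mafba tube lay with the siblings. The adjusted p was 0.408 for tnfaip2b and 0.608 for the others in edgeR.

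Of the 10 lower genes with the smallest p, none of which passed, adgrg1 (ENSDARG00000027222) came first. It encodes an adhesion G protein-coupled receptor, also called GPR56, that is part of the microglial signature in mammals. The gene had 0 CPM in each mafba tube, against 92.0, 153 and 67.2 CPM in the sibling tubes. No mafba tube held a read and the sibling tubes held 1358, 1503 and 865 counts. The level in mafba was at least 1535-fold lower against a floor of 3 counts over the mafba group, again a bound on counting error. The adjusted p was 0.126 in edgeR, 0.0188 in limma voom and 4.12e-05 in DESeq2. It was not absent from every mutant tube, with 0, 2.98 and 27.17 CPM in mafbb tubes and 57.5, 266 and 99.6 CPM in DMut tubes.

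Genes tied to signalling and stress were lower by 2.65-fold to 3.35-fold in mafba with no overlap between the groups. RASGEF1B (ENSDARG00000033614), an exchange factor for Ras-family GTPases, had 215, 315 and 401 CPM in mafba tubes and 836, 886 and 747 CPM in sibling tubes. GADD45B (ENSDARG00000027744), a stress-induced gene with several copies in this genome, had 184, 123 and 75.4 CPM in mafba tubes and 378, 427 and 475 CPM in sibling tubes. SAT1 (ENSDARG00000035652), which acetylates spermidine in polyamine turnover, had 193, 224 and 198 CPM in mafba tubes and 452, 833 and 575 CPM in sibling tubes. In each gene the highest mafba tube stayed below the lowest sibling tube, and the mafba tubes were closest to each other for SAT1. Their log2 fold changes were -1.41 ± 0.41 (SE) for RASGEF1B, -1.74 ± 0.52 (SE) for GADD45B and -1.60 ± 0.48 (SE) for SAT1, each with an adjusted p of 0.608 in edgeR.

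Of the remaining lower genes, arl5c, a small GTPase of the Arl family, had 233, 461 and 261 CPM in the mafba tubes and 351, 1319 and 1217 CPM in the sibling tubes. UCP2, an uncoupling protein of the inner mitochondrial membrane, had 349.6, 770.2 and 634 CPM in mafba and 2650.3, 768 and 859 CPM in siblings. Both overlapped between the groups. The opioid precursor gene penka had 0 in each mafba tube and 0.0677, 0.102 and 277 CPM in the siblings, so that sibling replicate 3 alone held its level. BEND3, the co-chaperone gene DNAJB4 and the proteasome subunit gene psma6l had 0 in each mafba tube and were at 0 in 1 sibling tube each.

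Leaving out mafba replicate 2 gave 2 calls among 9519 genes, both lower in mafba (0.021%), and none higher (0%). At an unadjusted p under 0.05, 391 genes (4.11%) were then higher and 195 (2.05%) lower. g0s2 (ENSDARG00000078859), known for inhibiting the triglyceride lipase of lipid droplets, had 0.107, 476 and 0 CPM in the mafba tubes, against 829, 667 and 314 CPM in the sibling tubes. It was all but absent from mafba replicates 1 and 3 and at the level of the siblings in mafba replicate 2. Its log2 fold change was -13.16 ± 1.66 (SE) without that tube (adjusted p = 4.20e-06 in edgeR) and -1.93 ± 3.23 (SE) with it (adjusted p of 1). None of the 3 mafbb tubes and none of the 3 DMut tubes held a count of g0s2. ptges3l (ENSDARG00000079462), a relative of the co-chaperone and prostaglandin E synthase PTGES3, had 0, 9.32 and 0 CPM in mafba tubes and 519.8, 197 and 14.8 CPM in sibling tubes. The groups lay apart also with mafba replicate 2, and the log2 fold change was -14.63 ± 2.30 (SE) without that tube (adjusted p = 3.32e-04 in edgeR) and -6.30 ± 2.36 (SE) with it (adjusted p = 0.608). Both calls were lost with robust=FALSE (adjusted p = 0.0509 and 0.0744). The call of ptges3l was also lost in limma voom (0.0822), on the 5 tubes alone (0.593) and without sibling replicate 1 (0.0740).

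**Figure D2:**
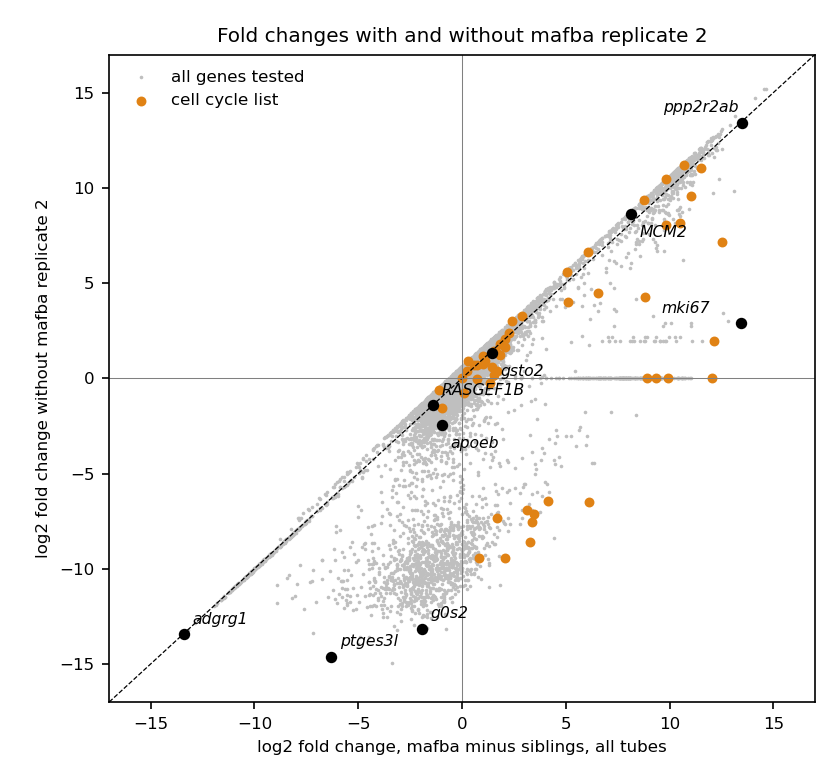
Log2 fold change, mafba minus siblings, of 9519 genes from all tubes (x axis) and without mafba replicate 2 (y axis), with the cell cycle list in orange and 9 genes named in black. Genes on the dashed line keep their value, ppp2r2ab and adgrg1 among them, and g0s2, which mafba replicate 2 shared with the siblings, lies far below it.

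More than these calls differed with the tube. It was singled out for having the most genes counted, so the next numbers partly restate that choice. Of 35117 gene IDs, 138 had at least 10 counts in mafba replicate 2 and in every sibling tube, and 0 counts in mafba replicates 1 and 3. With mafba replicate 1 as the only mafba tube there were 11 such genes, and with mafba replicate 3 there were 21. The median log2 fold change over all genes was 0.11 with the tube and -0.02 without it. In the plot of fold changes with and without mafba replicate 2, such genes lie below the diagonal.

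Genes silent in 1 group and counted in every tube of the other were rare. With 0 counts in the siblings and at least 10 counts in each mafba tube there were 89 of 35117 genes (0.253%), and the reverse held for 24 (0.0683%). After ppp2r2ab, the one with the highest mean CPM in mafba among genes with a gene name was ID1, an inhibitor of helix-loop-helix factors, at 14.9, 90.8 and 66.2 CPM in the mafba tubes. PRMT3, an arginine methyltransferase, had 140.4, 3.56 and 27.3 CPM there. The phosphoglucomutase gene pgm1 had 108, 9.59 and 49.1 CPM, and the activin receptor gene ACVR2A 131, 25.9 and 6.41 CPM. Levels differed between mafba tubes by several-fold or far more in each, most in PRMT3 (140.4 against 3.56 CPM). All had an adjusted p of 0.608 in edgeR. After adgrg1, the genes silent in mafba were led by eef2a.1, a copy of the translation elongation factor 2 gene whose reads may be shared with other copies, at 49.8, 36.1 and 17.01 CPM in the sibling tubes. TENT5A, a poly(A) polymerase, had 32.0, 35.3 and 35.1 CPM there. The tropomyosin gene tpm4a had 38.3, 22.5 and 28.9 CPM in the sibling tubes and the deubiquitinase gene OTUD3 23.1, 23.8 and 38.8 CPM. The sibling tubes were most alike in TENT5A, and the adjusted p was 0.608 for each in edgeR.

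Most genes of the microglia list were counted in both groups, and the apolipoprotein genes of the list separated mafba replicates 1 and 3 from the other 4 tubes. Of the 24 gene IDs of the microglia list 19 were tested and none was called. Of these 9 lay above 0, with a median log2 fold change of -0.09 (-0.12 to 0.09 with 1 tube left out, and above 0 without mafba replicate 1 or 3) beside 0.11 for all genes, and 4 lay apart higher and 1 lower, beside 5.61% and 3.7% of all genes. The list took 1.92%, 6.01% and 2.47% of gene counts in the mafba tubes, against 4.66%, 6.60% and 5.596% in the sibling tubes. Mafba replicate 2 lay among the siblings and the other mafba tubes below them (exact two-sided permutation test, p = 0.3, 0.682 adjusted over 30 measures, where 0.1 is the smallest p that 3 tubes against 3 allow). The genes apoeb and apoc1, which the cholesterol and lipid list also holds, made up most of this share in mafba replicate 2 and each sibling tube.

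**Figure D3:**
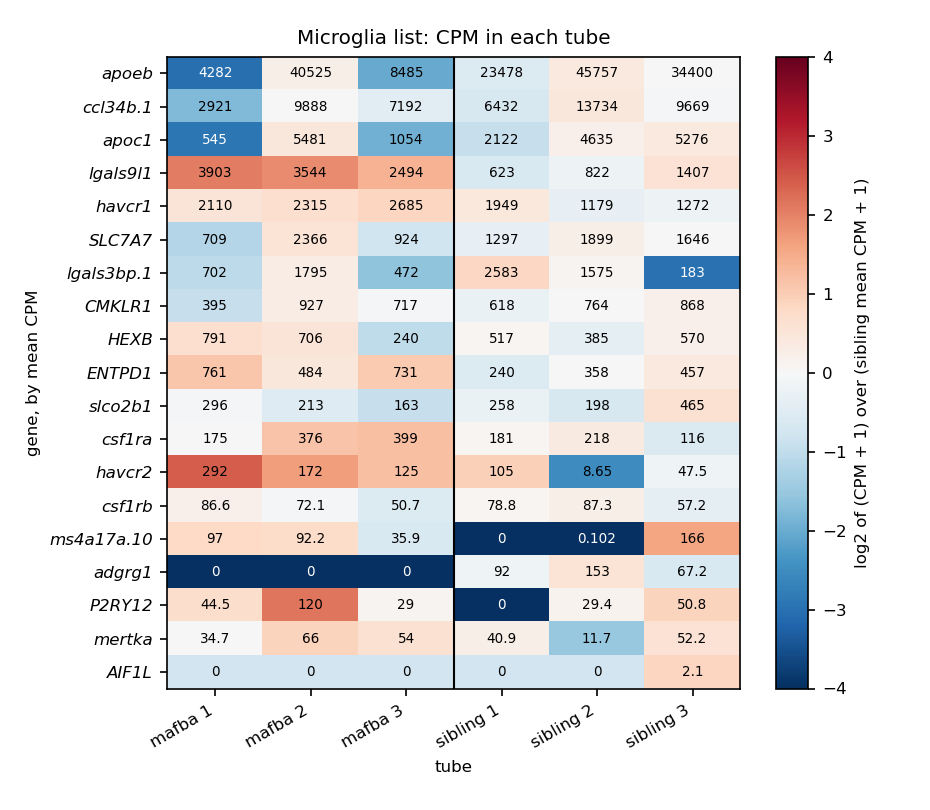
CPM of the 19 tested genes of the microglia list in each mafba tube (left) and each sibling tube (right), with colour for log2 of CPM plus 1 over the sibling mean plus 1, drawn to 4 in each direction. apoeb and apoc1 are lowest in mafba 1 and mafba 3, lgals9l1 is higher in all mafba tubes, and adgrg1 is 0 in all of them.

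apoeb, which carries lipid and marks microglia in zebrafish, had 4282, 40525 and 8485 CPM in the mafba tubes, against 23478, 45757 and 34400.3 CPM in the sibling tubes. apoc1, another apolipoprotein gene, had 545, 5481 and 1054 CPM in mafba tubes and 2122, 4635 and 5276 CPM in sibling tubes. In both genes mafba replicates 1 and 3 lay below every sibling tube, while mafba replicate 2 lay within or above the siblings. The log2 fold change of apoeb was -0.96 ± 0.90 (SE) with all tubes and -2.44 ± 0.69 (SE) without mafba replicate 2, and that of apoc1 was -0.77 ± 0.98 (SE) and -2.33 ± 0.76 (SE). In edgeR the adjusted p was 1 for both with all tubes and 0.599 for both without that tube. Some alternatives without that tube called them lower in edgeR, apoc1 with DESeq2 size factors (adjusted p = 0.0107), without a filter (0.0197) and with the replicate number as a block (0.00159), and apoeb on the 5 compared tubes alone (0.0357) and with the block (3.78e-21). Neither was called there with TMMwsp, library size alone, spike-in scaling, the stricter filter or any sibling tube left out. Whether replicate numbers mark a shared batch, as the block assumes, was not tested. The block adds terms to a fit of few tubes. Without mafba replicate 2 it gave cxcl19 an adjusted p of 6.36e-78 in edgeR. Values as small as this from that fit are not a reliable measure of the spread between tubes. With all tubes scaled to the spike-ins, which moved the median of all genes to 0.59, apoeb had a log2 fold change of 0.027. The chemokine gene ccl34b.1, of a family with similar copies, had 2921, 9888 and 7192 CPM in mafba and 6432, 13734 and 9669 CPM in siblings, which overlapped (log2 fold change -0.58 ± 0.51 (SE), and 0.14 with spike-in scaling).

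Some surface and engulfment genes of the list were higher in every mafba tube. lgals9l1 (ENSDARG00000025903), a galectin gene, had 3903, 3544 and 2494 CPM in the mafba tubes and 623, 822 and 1407 CPM in the sibling tubes. All mafba tubes lay above all sibling tubes, by 3.49-fold in the means, with a log2 fold change of 1.80 ± 0.57 (SE) and an adjusted p = 0.608 in edgeR. With the replicate number as a block lgals9l1 was called higher (adjusted p = 0.0407 in edgeR). The phosphatidylserine receptor gene havcr1 had 2110.4, 2315 and 2685 CPM in mafba and 1949, 1179 and 1272 CPM in siblings (log2 fold change 0.69 ± 0.33 (SE), adjusted p = 0.608 in edgeR). Its relative havcr2, chosen like ENTPD1 after its values were seen, had 292, 172 and 125 CPM in mafba and 105, 8.65 and 47.5 CPM in siblings. ENTPD1, an ectonucleotidase that breaks down extracellular ATP, had 761, 484 and 731 CPM in mafba and 239.6, 358 and 457 CPM in siblings. The groups lay apart in these 3 genes by small gaps, and none passed the test. Other members, likewise chosen afterwards, overlapped. The Csf1 receptor gene csf1ra, needed for microglia in zebrafish, had 175, 376 and 399 CPM in mafba and 181, 218 and 116 CPM in siblings. Its paralogue csf1rb had 86.6, 72.1 and 50.7 CPM in mafba and 78.8, 87.3 and 57.2 CPM in siblings. The purine receptor gene P2RY12 had 44.5, 120.2 and 29.0 CPM in mafba and 0, 29.4 and 50.8 CPM in siblings. P2RY13, GPR34, tyrobp and a SALL1 gene had 0 counts in all 6 tubes.

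Genes shared by myeloid cells took similar shares of counts in both groups. Of 30 gene IDs 27 were tested, 18 lay above 0, and the list took 1.64%, 1.19% and 1.65% of counts in mafba tubes and 1.23%, 1.14% and 1.45% in sibling tubes. Of the 27, 3 lay apart higher and 2 lower, beside 5.61% and 3.7% of all genes. LCP1, the actin bundler L-plastin, had 2507, 1683 and 2452 CPM in mafba and 1481, 1388 and 1999 CPM in siblings. CORO1A, an actin-binding coronin, had 2236, 1463 and 1657 CPM in mafba and 1336, 1132 and 1393 CPM in siblings. The lysosomal glycoprotein gene cd68 had 1388, 1455 and 1394 CPM in mafba tubes and 1840.3, 1978 and 1797 CPM in sibling tubes. Every mafba tube lay below every sibling tube, but the gene was not called (log2 fold change -0.41 ± 0.28 (SE), adjusted p of 1 in edgeR, and 0.058 with spike-in scaling). Chosen after values were seen, the integrin gene itgb2 had 319, 157 and 348 CPM in mafba and 39.1, 74.6 and 70.9 CPM in siblings, a 4.46-fold difference of means with an adjusted p of 0.608 in edgeR.

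Of the 28 IDs of engulfment and complement genes 18 were tested, 10 lay above 0, and havcr1, havcr2 and PTPN6 lay apart higher, beside 5.61% of all genes. The median log2 fold change was 0.10 with all tubes, and -0.35 without mafba replicate 2, where 7 of 18 lay above 0. It was also below 0 with DESeq2 size factors (-0.094) and with library size alone (-0.064). PTPN6 (ENSDARG00000089043), the phosphatase SHP-1 that damps immune receptor signalling, had 1419.6, 648 and 1212 CPM in mafba tubes and 473, 282 and 594 CPM in sibling tubes. Every mafba tube lay above every sibling tube, with a log2 fold change of 1.28 ± 0.39 (SE) with all tubes and 1.56 ± 0.41 (SE) without mafba replicate 2 (adjusted p = 0.608 and 0.339 in edgeR). The amino acid transporter gene SLC7A7, needed by zebrafish microglia, had 709, 2366 and 924 CPM in mafba and 1297, 1899 and 1646 CPM in siblings, with mafba replicate 2 the highest of all. The glucose-6-phosphate transporter gene SLC37A2 had 886, 1474 and 707 CPM in mafba and 1066, 766 and 1023 CPM in siblings, which overlapped. The complement gene c1qb, chosen afterwards, had 0, 29.4 and 33.5 CPM in mafba and 0, 0 and 13.8 CPM in siblings.

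The abundant lysosomal genes NPC2, CTSB and ctsla also separated mafba replicate 2 from the other mafba tubes. The list took 3.22%, 5.199% and 3.55% of counts in the mafba tubes, against 5.68%, 3.81% and 4.54% in the sibling tubes. Of 59 IDs 52 were tested, 28 lay above 0 with all tubes and 22 without mafba replicate 2. Of the 52, 6 lay apart higher and 2 lower, beside 5.61% and 3.7% of all genes. PSAP, the precursor of the saposins, had 4809, 10553 and 8782 CPM in mafba and 12523, 7768 and 10619 CPM in siblings. Mafba replicates 2 and 3 both lay within the siblings for PSAP. NPC2, which moves cholesterol out of lysosomes, had 1984, 4257 and 1897 CPM in mafba and 4713, 3381 and 4184 CPM in siblings. The protease gene CTSB had 2795, 9273 and 3294 CPM in mafba and 5303, 4470.02 and 6413 CPM in siblings. ctsla, a cathepsin L gene, had 1331, 4765 and 1669 CPM in mafba and 3039, 5215 and 4039 CPM in siblings. In these 4 genes mafba replicate 2 was the highest mafba tube and lay within the siblings or above them, and the groups overlapped. Without it the log2 fold changes were -0.59 for PSAP, -1.07 for NPC2, -0.82 for CTSB and -1.46 for ctsla, with an adjusted p of 0.599 or more in edgeR. With spike-in scaling of all tubes, PSAP and NPC2 had positive log2 fold changes of 0.28 and 0.11. With all tubes limma voom called PSAP higher in mafba (log2 fold change 0.41, adjusted p = 0.0450). Enzymes whose groups lay apart, chosen after their values were seen, went both ways. The peptidase gene TPP1 had 470.5, 582 and 514 CPM in mafba and 1179, 983 and 782 CPM in siblings. The cathepsin gene CTSK had 1426, 1743 and 1769 CPM in mafba and 815, 1005 and 598 CPM in siblings. The ceramidase gene ASAH1 (ENSDARG00000034817) had 229, 354 and 249 CPM in mafba and 46.1, 75.5 and 117 CPM in siblings.

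The cholesterol and lipid list took 0.928%, 4.62% and 1.25% of counts in the mafba tubes, against 3.67%, 5.18% and 4.53% in the sibling tubes, most of it apoeb and apoc1. Of 69 IDs 33 were tested, 18 lay above 0 and none was called. Of the 33, 2 lay apart higher and 2 lower, beside 5.61% and 3.7% of all genes. fabp4a, a fatty acid binding protein, had 712, 1609.99 and 204 CPM in mafba and 317, 649.8 and 587 CPM in siblings. PLIN2 (ENSDARG00000042332), the coat protein of lipid droplets, was chosen after its values were seen and had 65.5, 87.6 and 71.0 CPM in mafba tubes and 273, 299.6 and 284 CPM in sibling tubes. Here mafba replicate 2 sided with its group and the ranges were narrow, with a log2 fold change of -1.93 ± 0.86 (SE) and -2.07 ± 1.02 (SE) without that tube, but an adjusted p of 0.608 in edgeR. Its relative plin3 had 96.4, 164 and 161 CPM in mafba and 262, 258 and 204 CPM in siblings.

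Genes of DNA replication lay mostly above 0 with and without mafba replicate 2, although their share of counts overlapped between the groups. All 33 mitosis IDs had at least 10 counts in mafba replicate 2. Of the cell cycle list 54 of 80 gene IDs were tested. With all tubes 51 lay above 0, with a median log2 fold change of 2.64, and without mafba replicate 2 this was 35, with a median of 0.90. The median was 8.49 without sibling replicate 1 and 2.02 to 3.45 without each of the other 4 tubes. None was called with all tubes or without mafba replicate 2. Of the 54, 5 lay apart higher and 0 lower, beside 5.61% and 3.7% of all genes. The list took 0.245%, 1.58% and 0.3996% of counts in the mafba tubes, against 0.290%, 0.1797% and 0.101% in the sibling tubes. At least 1 count was found for 43, 71 and 51 of its IDs in mafba tubes and for 33, 30 and 20 in sibling tubes.

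**Figure D4:**
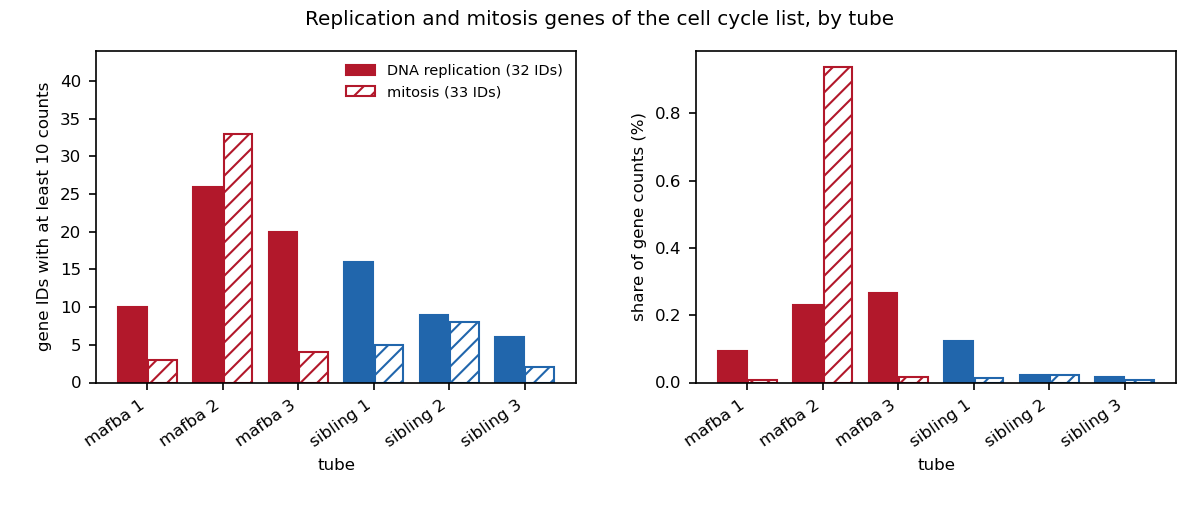
Number of gene IDs with at least 10 counts (left) and share of gene counts in percent (right) for the replication genes (filled bars, 32 IDs) and mitosis genes (hatched bars, 33 IDs) of the cell cycle list, mafba tubes in red and sibling tubes in blue. All 33 mitosis IDs pass 10 counts in mafba 2, against 3 and 4 in the other mafba tubes and 2 to 8 in the sibling tubes.

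The list was split by role, a split made after the values were seen. Its 33 mitosis IDs held at least 10 counts in 3, 33 and 4 cases in the mafba tubes and in 5, 8 and 2 cases in the sibling tubes. Mafba replicate 2 thus held every one of them, and they took 0.938% of its counts, against 0.00616% and 0.0167% in the other mafba tubes and 0.00655% to 0.0237% in the sibling tubes. The importin gene KPNA2 had 0.965, 3116 and 94.7 CPM in mafba and 0, 7.12 and 0 CPM in siblings. Of genes chosen after their values were seen, the mitotic kinase gene CDK1 had 0.0536, 1238 and 0.273 CPM in mafba and 0 in each sibling tube. The kinase gene plk1 had 0.107, 649 and 0.273 CPM in mafba and the proliferation marker mki67 0.0536, 319 and 0.0682 CPM, both with 0 in each sibling tube. The cyclin gene CCNB1 had 0, 313 and 0.0682 CPM in mafba and 0, 0.305 and 0 CPM in siblings, and in all of these genes mafba replicate 2 was the highest of the 6 tubes.

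The 32 replication IDs were not limited to that tube. At least 10 counts were found for 10, 26 and 20 of them in mafba tubes and for 16, 9 and 6 in siblings. Their shares of counts were 0.0947%, 0.229% and 0.265% in mafba and 0.124%, 0.0235% and 0.0164% in siblings. By both measures sibling replicate 1 lay above mafba replicate 1, so the groups overlapped. Of 28 tested, 28 lay above 0 with all tubes (median log2 fold change 3.51) and 22 without mafba replicate 2 (median 1.86). Only 12 of the 33 mitosis IDs were tested, and for these the numbers were 12 of 12 (median 3.33) and 5 of 12 (median -0.12). Beside MCM2 and MCM3, the helicase subunit gene MCM6, chosen like the other MCM genes here after its values were seen, had 127, 51.1 and 246 CPM in the mafba tubes and 1.35, 29.3 and 27.5 CPM in the sibling tubes, with no overlap. MCM5 had 0, 154 and 269.8 CPM in mafba and 100.2, 0.407 and 0.0777 CPM in siblings. MCM7 had 0.0536, 69.2 and 148 CPM in mafba and 44.9, 0 and 0 CPM in siblings. MCM4 had 121, 88.2 and 99.1 CPM in mafba and 197, 0 and 60.1 CPM in siblings. These 3 overlapped, and sibling replicate 1 held the highest sibling level of each. The sliding clamp gene PCNA had 61.6, 746 and 669.6 CPM in mafba and 305, 29.7 and 21.1 CPM in siblings, and again sibling replicate 1 lay above mafba replicate 1. The tubulin gene tuba8l4 had 439, 1607 and 564 CPM in mafba and 676, 614 and 266 CPM in siblings. The chromatin gene HMGB2 had 598, 2270.01 and 212 CPM in mafba and 253, 557 and 241 CPM in siblings, and mafba replicate 2 was the highest tube for both.

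Immediate early genes were lower as a share of counts in every mafba tube. They took 1.42%, 1.19% and 1.46% in the mafba tubes, against 2.33%, 1.98% and 1.94% in the sibling tubes (exact two-sided permutation test, p = 0.1, the smallest possible, 0.682 adjusted over 30 measures). Of 44 tested members 7 lay apart lower and 1 higher, where 3.7% and 5.61% of all genes did so, and the median log2 fold change was -0.41 with all tubes, -0.26 without mafba replicate 2 and -0.27 without sibling replicate 3. CEBPB, a leucine zipper factor of myeloid cells that stress induces, had 1587, 3500.3 and 3204 CPM in mafba and 4133, 4050.1 and 5009 CPM in siblings (log2 fold change -0.67 ± 0.32 (SE), adjusted p = 0.608 in edgeR). Chosen after their values were seen, the AP-1 gene JUNB (ENSDARG00000104773) had 399.9, 559.8 and 543 CPM in mafba and 875, 929.9 and 992 CPM in siblings. The nuclear receptor gene NR4A1 had 405, 244 and 278 CPM in mafba and 684, 831 and 471 CPM in siblings. EGR3, a zinc finger factor, had 0, 13.98 and 0 CPM in mafba and 123, 182 and 150.1 CPM in siblings. The groups lay apart in all of these and none passed the test. On the 5 compared tubes alone, without mafba replicate 2, EGR3 was called lower (adjusted p = 0.00311 in edgeR). Other members overlapped. The AP-1 gene JUN had 513, 270.3 and 367 CPM in mafba and 2792, 187 and 532 CPM in siblings, with sibling replicate 1 far above the rest. Its partner FOS had 290.4, 504 and 226 CPM in mafba and 613, 131 and 349 CPM in siblings. The stress factor gene ATF3 had 932, 656 and 379 CPM in mafba and 869, 1080.4 and 733 CPM in siblings. The survival gene mcl1a had 1927, 2371 and 1958 CPM in mafba and 2178, 3624 and 2594 CPM in siblings. These genes also respond to tissue dissociation, and whether handling differed between the groups was not tested.

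**Figure D5:**
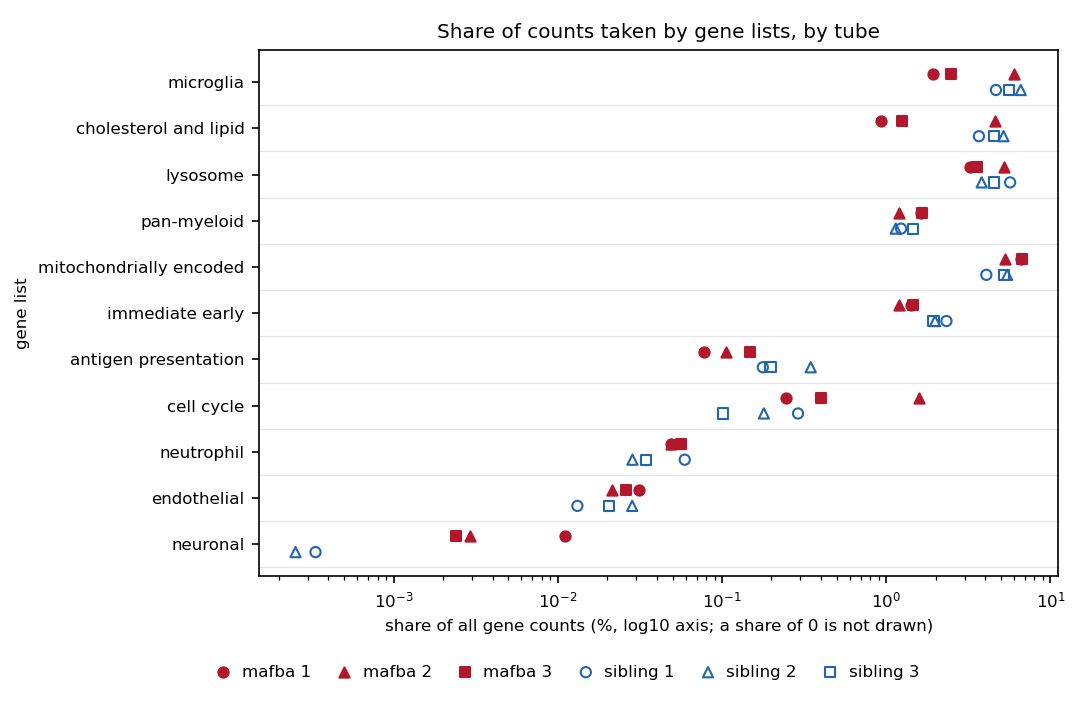
Share of all gene counts, in percent on a log10 axis, taken by 11 gene lists in each mafba tube (filled red) and each sibling tube (open blue). The groups do not overlap for the immediate early, antigen presentation and neuronal lists. For the microglia and lipid lists, which share apoeb and apoc1, mafba 1 and mafba 3 lie below the siblings while mafba 2 lies among them.

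The groups overlapped in 4 further regulators of macrophages. The Ets factor gene spi1a, a PU.1 gene that specifies macrophages, had 328, 459 and 792 CPM in mafba and 366, 556 and 392 CPM in siblings. SPI1, its paralogue, had 60.1, 381 and 450.4 CPM in mafba and 33.9, 441 and 447 CPM in siblings. NFE2L2, which drives the response to oxidants, had 642, 361 and 408 CPM in mafba and 174, 388 and 348 CPM in siblings. CEBPA, a myeloid leucine zipper factor, had 475, 244 and 542 CPM in mafba and 365, 255 and 407 CPM in siblings. Chosen after values were seen, MEF2C (ENSDARG00000009418), a factor of the microglial programme in mice, had 39.2, 23.1 and 90.1 CPM in mafba tubes and 1.35, 0 and 0 CPM in sibling tubes. The gene zeb2a, a zinc finger factor needed in mouse macrophages, had 0, 134 and 148 CPM in mafba and 351, 223 and 429 CPM in siblings. Both lay apart between the groups, in opposite directions, and neither passed in edgeR. For self-renewal genes, 9 of 19 IDs were tested, 4 lay above 0, and MAX, the partner of Myc, had 117, 105 and 144 CPM in mafba and 108, 109.6 and 138 CPM in siblings. The Myc gene mych had 273, 25.8 and 0 CPM in mafba and 83.3, 0.305 and 268 CPM in siblings. The Polycomb gene BMI1 had 52.4, 9.23 and 43.8 CPM in mafba and 15.3, 0 and 0 CPM in siblings. The Polycomb gene EZH2 had 0, 67.4 and 0 CPM in mafba and 15.3, 12.5 and 11.7 CPM in siblings, and the groups overlapped in these 4 genes.

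All 13 genes of the mitochondrial genome had log2 fold changes above 0. Their median was 0.47, between 0.24 and 0.80 over the scalings and left-out tubes tried, and 12 or more of them lay above 0 in each. The lowest median, 0.24 without sibling replicate 1, was 0.069 above that of all genes. Of the 13 genes 7 lay apart higher, beside 5.61% of all genes, and none was called. They took 6.66%, 5.26% and 6.72% of counts in the mafba tubes and 4.07%, 5.45% and 5.22% in the sibling tubes, which overlapped. MT-CO2, a subunit of cytochrome oxidase, had 14671, 15435 and 17893 CPM in mafba and 9453, 14371 and 13347 CPM in siblings (log2 fold change 0.37 ± 0.18 (SE), adjusted p = 0.608 in edgeR). MT-CO1 had 16645, 15282 and 19752 CPM in mafba and 9811, 16237 and 13003 CPM in siblings. MT-CYB had 11886, 10506 and 11626 CPM in mafba and 5468, 10383 and 10298 CPM in siblings. MT-CO3 had 9582, 10672 and 11947 CPM in mafba and 5662, 11128 and 9568 CPM in siblings. MT-ND5, a complex I subunit chosen after its values were seen, had 1725, 1272 and 1379 CPM in mafba and 734, 807 and 869 CPM in siblings. Sibling replicate 1 was the lowest tube for each of these 5 genes. Of the nuclear genes of oxidative phosphorylation 35 of 83 tested members lay above 0, with a median of -0.10 (-0.27 to -0.0063 with 1 tube left out, and 0.38 with spike-in scaling). ATP5F1B, ATP5F1A, atp5mc1 and cycsb, subunits of the ATP synthase and cytochrome c, had log2 fold changes of 0.02 ± 0.30 (SE), 0.20 ± 0.33 (SE), -0.46 ± 0.34 (SE) and -0.57 ± 0.42 (SE), the last pair positive with spike-in scaling.

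No glycolysis, ribosomal protein or heat shock gene was called in edgeR. Of 23 tested glycolysis genes 9 lay above 0, and PKM, the pyruvate kinase, had 1104, 960.2 and 1241 CPM in mafba and 643, 671 and 693 CPM in siblings, apart but not called (log2 fold change 0.72 ± 0.33 (SE), adjusted p = 0.608 in edgeR). GAPDHS, LDHB and ALDOA had log2 fold changes of -0.13 ± 0.25 (SE), -0.12 ± 0.39 (SE) and -0.12 ± 0.41 (SE). Of 79 tested ribosomal protein genes 41 lay above 0 with a median of 0.01 (-0.15 to 0.30 with 1 tube left out), and RPL3, RPS2, RPL19 and rps20 had log2 fold changes of 0.37 ± 0.28 (SE), 0.03 ± 0.25 (SE), -0.04 ± 0.29 (SE) and -0.03 ± 0.27 (SE). Heat shock genes took 9.10%, 5.87% and 8.38% of counts in mafba and 7.32%, 6.23% and 6.94% in siblings. hsp70l, hsp70.3 and hsp70.1, near-identical copies between which reads may be split, had log2 fold changes of 0.33 ± 0.35 (SE), 0.34 ± 0.24 (SE) and 0.14 ± 0.24 (SE), and HSPA8 of 0.47 ± 0.30 (SE).

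Of 34 tested inflammatory genes 16 lay above 0 and of 14 interferon genes 6. The groups lay apart higher in 4 inflammatory and 2 interferon genes and lower in 1 of each, beside 5.61% and 3.7% of all genes. The cytokine gene il1b had 1485, 3137 and 2628 CPM in mafba and 749.8, 4441 and 2289 CPM in siblings. ACOD1, which makes itaconate, had 1364, 442 and 1819 CPM in mafba and 514, 3535 and 1147 CPM in siblings. The NF-kB inhibitor genes nfkbiaa and nfkbiab had log2 fold changes of 0.35 ± 0.45 (SE) and 0.47 ± 0.29 (SE). tnfa, chosen after its values were seen, had 729.9, 13.2 and 0.205 CPM in mafba and 0 in each sibling tube, so that 1 mafba tube held nearly all of it (adjusted p = 0.608 in edgeR). JAK1, gbp1, ifngr2 and gbp2 of the interferon list had log2 fold changes of -0.25 ± 0.58 (SE), -0.17 ± 0.87 (SE), -0.77 ± 1.31 (SE) and -1.02 ± 1.65 (SE).

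Antigen presentation genes took a smaller share of counts in every mafba tube, at 0.0780%, 0.105% and 0.148%, against 0.177%, 0.347% and 0.198% in the sibling tubes (exact two-sided permutation test, p = 0.1, 0.682 adjusted over 30 measures). Of 10 tested members 3 lay above 0, with a median of -0.85, which was -0.30 without sibling replicate 2 and -0.43 without sibling replicate 3. cd83, a marker of activated presenting cells, had 196, 601 and 1132 CPM in mafba and 749, 2404 and 1236 CPM in siblings. ifi30a, a thiol reductase of the presenting compartment, had 125, 470.1 and 58.4 CPM in mafba and 464, 861 and 576 CPM in siblings. These 2 genes overlapped between the groups and held most of the list's counts in every tube but mafba replicate 1. Without mafba replicate 2 the log2 fold change of ifi30a was -2.81 ± 0.72 (SE) (adjusted p = 0.294 in edgeR). The class I gene mhc1zba had 199, 76.8 and 208 CPM in mafba and 188, 403 and 98.3 CPM in siblings. The light chain gene b2ml had 138, 56.8 and 129 CPM in mafba and 109.6, 89.9 and 49.3 CPM in siblings. The class II genes cd74a, cd74b, mhc2dab and mhc2dbb had 0 counts in all 6 tubes.

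Of the chemokine and migration list 19 of 40 IDs were tested, 13 lay above 0 with a median of 0.56, and 4 lay apart higher, beside 5.61% of all genes. The median was 0.31 without mafba replicate 2, 0.20 without mafba replicate 3, 0.27 without sibling replicate 2, 0.15 without sibling replicate 3 and 0.20 with DESeq2 size factors. Without sibling replicate 3 it lay below the median of all genes, which was then 0.23. As a share of counts the list went the other way, with a mean of 0.908% in mafba and 1.22% in siblings. The tubes had 0.531%, 1.16% and 1.04% in mafba and 1.02%, 1.46% and 1.17% in siblings, which overlapped. CMKLR1, a chemoattractant receptor, had 395, 927 and 717 CPM in mafba and 618, 764 and 868 CPM in siblings. The chemokine gene ccl34a.4 had 276, 662 and 646 CPM in mafba and 348, 114 and 602 CPM in siblings. The neutrophil-attracting chemokine gene cxcl8a had 321, 92.5 and 812 CPM in mafba and 304, 444 and 86.8 CPM in siblings. These 3 genes overlapped between the groups. CXCR4 (ENSDARG00000041959), the receptor of Cxcl12, was chosen after its values were seen and had 82.0, 217 and 256 CPM in mafba and 35.3, 0.102 and 59.2 CPM in siblings, apart but not called (adjusted p = 0.945 in edgeR).

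Neutrophil markers took 0.0486%, 0.0492% and 0.0563% of counts in mafba tubes and 0.0593%, 0.0285% and 0.0343% in sibling tubes. lyz, npsn and 7 of the other 15 IDs had 0 counts in all 6 tubes, and what was counted came mostly from a LECT2 gene (ENSDARG00000033227), with 269.7, 338 and 135 CPM in mafba and 295, 135 and 135 CPM in siblings, and from srgn. Of 22 lymphocyte IDs 19 had 0 counts in all 6 tubes, RAG1, lck and PAX5 among them, and most of the rest was a gene listed as CCR9 (ENSDARG00000055186), with 236, 179 and 54.1 CPM in mafba and 537, 199 and 48.5 CPM in siblings. Of 15 erythroid IDs 13 had 0 counts in all 6 tubes, every globin gene of the list among them. Endothelial markers took 0.0313%, 0.0213% and 0.0260% in mafba and 0.0131%, 0.0284% and 0.0206% in siblings, with kdrl and cdh5 at 0 throughout. The neuronal list lay apart, at 0.0110%, 0.00293% and 0.00241% of counts in mafba and 0.000334%, 0.000252% and 0% in siblings, with ELAVL3, gap43 and map2 at 0 throughout and the RNA-binding protein gene ELAVL4 at 32.1, 14.3 and 3.55 CPM in mafba and 0 in siblings. Members other than ELAVL4 held most of the neuronal list's counts in each mafba tube. The part of neuronal RNA in the other differences was not tested. Radial glia markers took 0.340%, 0.9% and 0.404% in mafba and 0.786%, 0.445% and 1.03% in siblings, most of it a GLUL gene (ENSDARG00000099776) for glutamine synthetase, with GFAP and SOX2 at 0 throughout. Epidermal and metaphocyte markers took 1.04%, 1.02% and 0.937% in mafba and 0.618%, 0.952% and 0.9499% in siblings, most of it the actin regulator gene pfn1, with epcam, krt4 and krt5 at 0. The claudin gene cldni had 0.161, 1.28 and 1184 CPM in mafba and 0, 95.0 and 0.0777 CPM in siblings. The keratin gene krt8 had 32.4, 11.5 and 398 CPM in mafba and 0, 25.0 and 65.6 CPM in siblings, and mafba replicate 3 held most of both.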

How the data were processed

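Poly(A) RNA of 3 picked cells per tube was amplified by Smart-seq2. The authors deposited whole-number read counts for each gene in each tube, with no normalization. The submitters' processing notes name Trim Galore, STAR and the builds GRCz11 and danRer11. Counting tool, annotation and strandedness were not given in the sources used here, and overlapping or antisense genes cannot be told apart. The table has 35209 entries, 35117 gene IDs and 92 spike-ins (37 counted). The spike-ins were left out of the tests, and names came from a table that pairs 27000 IDs with a symbol, in capitals where the human symbol is used. No positions are given.

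Genes were kept by filterByExpr (minimum count 10, minimum total 15), which left 9519. Library sizes were summed over the kept genes and scaled by TMM, and 1 edgeR 4.0.16 quasi-likelihood model (R 4.3.3, robust=TRUE) with 4 genotype terms took in all 12 tubes. p-values were adjusted by Benjamini-Hochberg over all 9519 genes, with calls at an adjusted p under 0.05, and the same was done without mafba replicate 2. The floor of 3 counts equals 0.0678 CPM over the mafba tubes and 0.0801 CPM over the siblings. Bounds cover counting error only, since reads carried no molecular identifiers. An exact two-sided permutation test compared tube properties and list shares, adjusted over 30 measures. The choices varied, 1 at a time, were the tool (DESeq2 1.42.0, or limma 3.58.1 voom with sample weights), the scaling (spike-ins, size factors of DESeq2, TMMwsp, none), the filter (none, or a CPM above 10 in 3 or more tubes), robust=FALSE, a block for replicate number and the tubes in the fit (the compared ones alone, or 1 left out). The test script was tested on simulated data.

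The members and lists were chosen with earlier results of these data known. Of 1007 list members written, 57 had no match, and 5 matches to another gene were barred by name after the table was read. The level of the mutated gene is not reported here. Named are the 10 genes per direction with the smallest p, up to 5 called per direction without mafba replicate 2, up to 4 members per list with the highest mean CPM and the 5 per direction silent in 1 group. Others are said to be chosen after values were seen. CPM is not scaled to length, so levels are not compared between genes.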

Additional observations from a re-analysis of the deposited data

How the results depend on the processing

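The count of 0 genes called became 1 with DESeq2 size factors, 3 with spike-in scaling, 12 without a filter, 3 on the 6 compared tubes alone, 37 in limma voom and 594 in DESeq2, and stayed at 0 with TMMwsp, library size alone, the stricter filter and robust=FALSE. Leaving out 1 tube gave 0 to 2 calls: 2 without mafba replicate 2 (g0s2 and ptges3l), 2 without sibling replicate 1 (SCPEP1 and MCM2) and 1 without sibling replicate 3, a gene with no symbol. The count of 2 without mafba replicate 2 became 4 with DESeq2 size factors, 7 with spike-in scaling, 12 without a filter, 0 with robust=FALSE, 132 in limma voom, 889 in DESeq2 and 11 on the 5 tubes alone, stayed at 2 with TMMwsp, library size alone and the stricter filter, and ranged from 2 to 5 without 1 sibling tube each. The cause of these moves was not tested. With the replicate number as a block, 11 genes were called with all tubes and 20 without mafba replicate 2. The 11 were UCHL1, ppp2r2ab, tnfa, MCM2, lgals9l1 and SCPEP1 higher and ptges3l, adgrg1, RBP2, RASGEF1B and cd83 lower. With the block and all tubes the median of the cell cycle list was 5.495, against 2.64 without the block. Correlations of deviations from the group means were 0.00731, -0.0262 and -0.00981 for same-numbered tubes and -0.0196 to 0.0303 for the others. By this measure same-numbered tubes were no more alike than the others. Deviations of 3 tubes sum to 0 within a group, so these values depend on each other, and a shared batch was not tested.

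Of single genes, 12 of the values under alternatives had the opposite sign. A reported value within 1 SE of 0 was given no direction in this count, a rule set after values were seen. With spike-in scaling these were apoeb 0.027, ccl34b.1 0.14, cd68 0.058, PSAP 0.28, NPC2 0.11, mcl1a 0.095, atp5mc1 0.10 and cycsb 0.091, all below the all-gene median of 0.59 under that scaling (0.17 with TMMwsp, 0.02 with library size alone, 0 with DESeq2 size factors). In limma voom these were PSAP 0.41, called higher there (adjusted p = 0.0450), and MT-CO3 -0.042, not called. The others were pfn1 without sibling replicate 1 (range -0.0011 to 0.42 with 1 tube left out) and tuba8l4 without mafba replicate 2 (range -0.048 to 1.07). The signs of the medians of the cell cycle, mitochondrially encoded, antigen presentation and immediate early lists held under every scaling tried, the last at -0.04 with spike-in scaling. At 10726836 to 17689266 counts a tube, 3420 of 9519 genes were counted in all 6 tubes, and bounds on absent genes cover counting error only.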

Other observations

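DESeq2 and limma voom both called 24 genes that edgeR did not call in the reported fit of all 12 tubes, which tested 9519 genes. ppp2r2ab, adgrg1, MCM2 and MEF2C, described above, were among the 24. A further 4 of the 24, chosen after their values were seen, are regulators not described above. irf9, a factor of the interferon response, had 70.0, 53.6 and 28.4 CPM in the mafba tubes and 0 in each sibling tube. stat5a, a factor downstream of cytokine receptors, had 71.3, 34.2 and 7.36 CPM in the mafba tubes and 0 in each sibling tube. TIMELESS, a replication fork protein, had 37.9, 23.8 and 56.2 CPM in the mafba tubes and 0 in each sibling tube. TET2, which oxidises methylcytosine, had 0 in each mafba tube and 18.4, 33.7 and 15.5 CPM in siblings. The unadjusted p in edgeR was 0.0130 for irf9, 0.0130 for stat5a, 0.0178 for TIMELESS and 0.0297 for TET2, and the adjusted p was 0.608 for each. These genes were at 0 in every tube of 1 group, so the size of a fold change depends on the prior count.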
